A study of Homo sapiens with 8 samples.

Results

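The 10 genes of the interleukin-1 family and of the inflammatory and alarm cytokines of epithelia were followed in MIV-Luc breast cancer cells: IL1A, IL1B, IL1RN, IL1R2, IL6, IL8, IL18, IL24, IL33 and TSLP. Members were matched by gene symbol, and all 10 were on the array. IL6 had 2 features (the gene-level units for which the array gives 1 value each) and the other genes had 1, so that the 10 genes made up 11 of the 29141 features tested. MIV-Luc is MCF10CA1a, the basal-like metastatic line of the MCF10A breast progression series, carrying a luciferase reporter. Cells were pools selected for a pLKO vector with either a scrambled hairpin (shSCR) or 1 hairpin against IL13RA2, the gene of the IL-13 receptor chain IL13Rα2 (shIL13Rα2#2). Both pools came from the same parent cells and are called lines below. Each was kept for 16 h without cytokine (− IL-13) or with IL-13 at 20 ng/ml (+ IL-13), which gave 4 groups of 2 arrays and 8 arrays in all. Hydrocortisone, insulin, EGF, cholera enterotoxin and horse serum were in the medium of every group, and every group carried a hairpin vector and the reporter. With 1 parent cell line and 1 hairpin against IL13RA2, effects of the receptor, of the hairpin and of the cell pool cannot be told apart. The arrays of a group are called A and B, by column order, and A in one group is not matched to A in another.

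IL-1α (IL1A) and IL-1β (IL1B) signal through the receptor IL1R1 and its partner IL1RAP to NF-κB. IL1RN encodes the antagonist that occupies IL1R1 without signaling, and IL1R2 encodes a decoy receptor that binds the ligands without signaling. IL-18 and IL-33 belong to the same family and use related receptor pairs, while IL-6 and IL-8 are typical products of cells that have received an IL-1 signal. IL-1α, IL-33 and TSLP are called alarmins because damaged epithelial cells release them, and IL-33 and TSLP act on immune cells that make IL-13. IL-24 is a member of the IL-20 subfamily. IL13Rα2, which binds IL-13 with high affinity, has long been described as a decoy for it.

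In the RefSeq annotation, IL1A and IL1B lie at one end of a run of IL-1 family genes, followed by IL37, IL36G, IL36A, IL36B, IL36RN, IL1F10 and, at the other end, IL1RN. The agonist IL1A and the antagonist IL1RN are thus the outer genes of this cluster, and they are also the members with the widest differences in the present data. Their sequences upstream of annotated start sites are shown for this reason, as RefSeq gives them on build GRCh38.p14, 250 bases up to the start, read 5′ to 3′ on the strand of the gene. The IL1A window, 1 of 2, is chr2:112784494-112784743 on the minus strand. The IL1RN windows, for 2 of its 3 starts, are chr2:113117721-113117970 and chr2:113127239-113127488, both on the plus strand. Capitals mark matches to the letters TGANTCA (AP-1) or to TTC and GAA with 4 bases between them (STAT6, the factor that IL-13 activates).
IL1A, start 1: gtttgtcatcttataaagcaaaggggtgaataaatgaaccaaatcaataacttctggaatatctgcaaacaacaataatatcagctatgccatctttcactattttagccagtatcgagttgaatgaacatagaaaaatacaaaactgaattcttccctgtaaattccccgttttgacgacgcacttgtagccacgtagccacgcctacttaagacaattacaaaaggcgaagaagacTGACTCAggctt
IL1RN, start 1: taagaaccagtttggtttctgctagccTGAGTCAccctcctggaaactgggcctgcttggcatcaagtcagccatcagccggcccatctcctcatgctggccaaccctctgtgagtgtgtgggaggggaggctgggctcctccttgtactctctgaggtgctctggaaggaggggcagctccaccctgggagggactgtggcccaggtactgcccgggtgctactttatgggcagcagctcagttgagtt
IL1RN, start 2: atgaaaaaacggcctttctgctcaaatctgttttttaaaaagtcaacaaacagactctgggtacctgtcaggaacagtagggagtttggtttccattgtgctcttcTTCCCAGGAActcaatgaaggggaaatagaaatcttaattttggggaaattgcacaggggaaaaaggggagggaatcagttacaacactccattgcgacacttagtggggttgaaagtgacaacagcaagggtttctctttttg

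Exact matches on both strands were sought for AP-1, STAT6 and an NF-κB motif in the 16 windows available for 9 of the 10 genes, and IL18 had no window. The printed IL1A window held an AP-1 match 12 to 6 bases before the start. A second IL1A window, for a start farther downstream, held the same match and another AP-1 match 55 to 49 bases before that start. Of the 3 IL1RN windows, the first held an AP-1 match 223 to 217 bases before its start, the second a STAT6 match 144 to 135 bases before its start, and the third no match. IL8, listed in RefSeq as CXCL8, had an AP-1 match 137 to 131 bases before its start, and IL6 had an NF-κB match 73 to 64 bases before its start. IL1R2 also had a STAT6 match, 176 to 167 bases before 1 of its starts, and TSLP an NF-κB match, 191 to 182 bases before 1 of its starts. Among 35116 windows of all genes, 6.57% held the AP-1 letters, 5.38% the STAT6 letters and 5.21% the NF-κB motif. None of the printed matches overlapped a match to another motif. These matches describe the sequence and do not show that a factor was bound there.

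The labels were checked on genes with a known behaviour. IL13RA2 was 1.65 lower in knockdown cells without IL-13 and 1.16 lower with it on the log2 scale, and IL-13 raised it by 1.27 in shSCR cells, so that knockdown cells with IL-13 (8.23 and 8.15) had values near those of mock-treated shSCR cells (8.07 and 8.09). SERPINB3, a target of IL-13, was 3.88 higher with IL-13 in shSCR cells and 3.28 higher in knockdown cells. CCL26, another target, was 1.69 higher with IL-13 in shSCR cells and 0.85 higher in knockdown cells. Among IL-13-treated cells CCL26 was 0.94 lower in knockdown cells. All 6 basal and all 4 general epithelial marker genes lay above the median of the 2904 negative control features of the table, and PTPRC, which defines leukocytes, had a mean log2 value of 2.47, in the lowest 6.27% of features. Array medians lay between 5.02 and 5.06.

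The signal of the interleukins themselves ranged from strong to background. The mean of a member over the 8 arrays was set against all tested features and against the negative controls, whose median was 4.19 and whose 95th percentile was 9.60. IL18 stood at percentile 97.3 of the tested features, IL8 at 87.9, IL1A at 83.8, IL1B at 60.3, IL1R2 at 42.5 and IL1RN at 41.2. These percentiles place the signal of a feature over background and do not rank the abundance of transcripts. These 6 genes were above the median of the negative controls, and 1 of them, IL18, was above their 95th percentile. The features of IL6, IL24, TSLP and IL33 were between percentiles 8.86 and 28.5 and below the control median, in a range where a difference in transcript is hard to see.

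**Figure D1:**
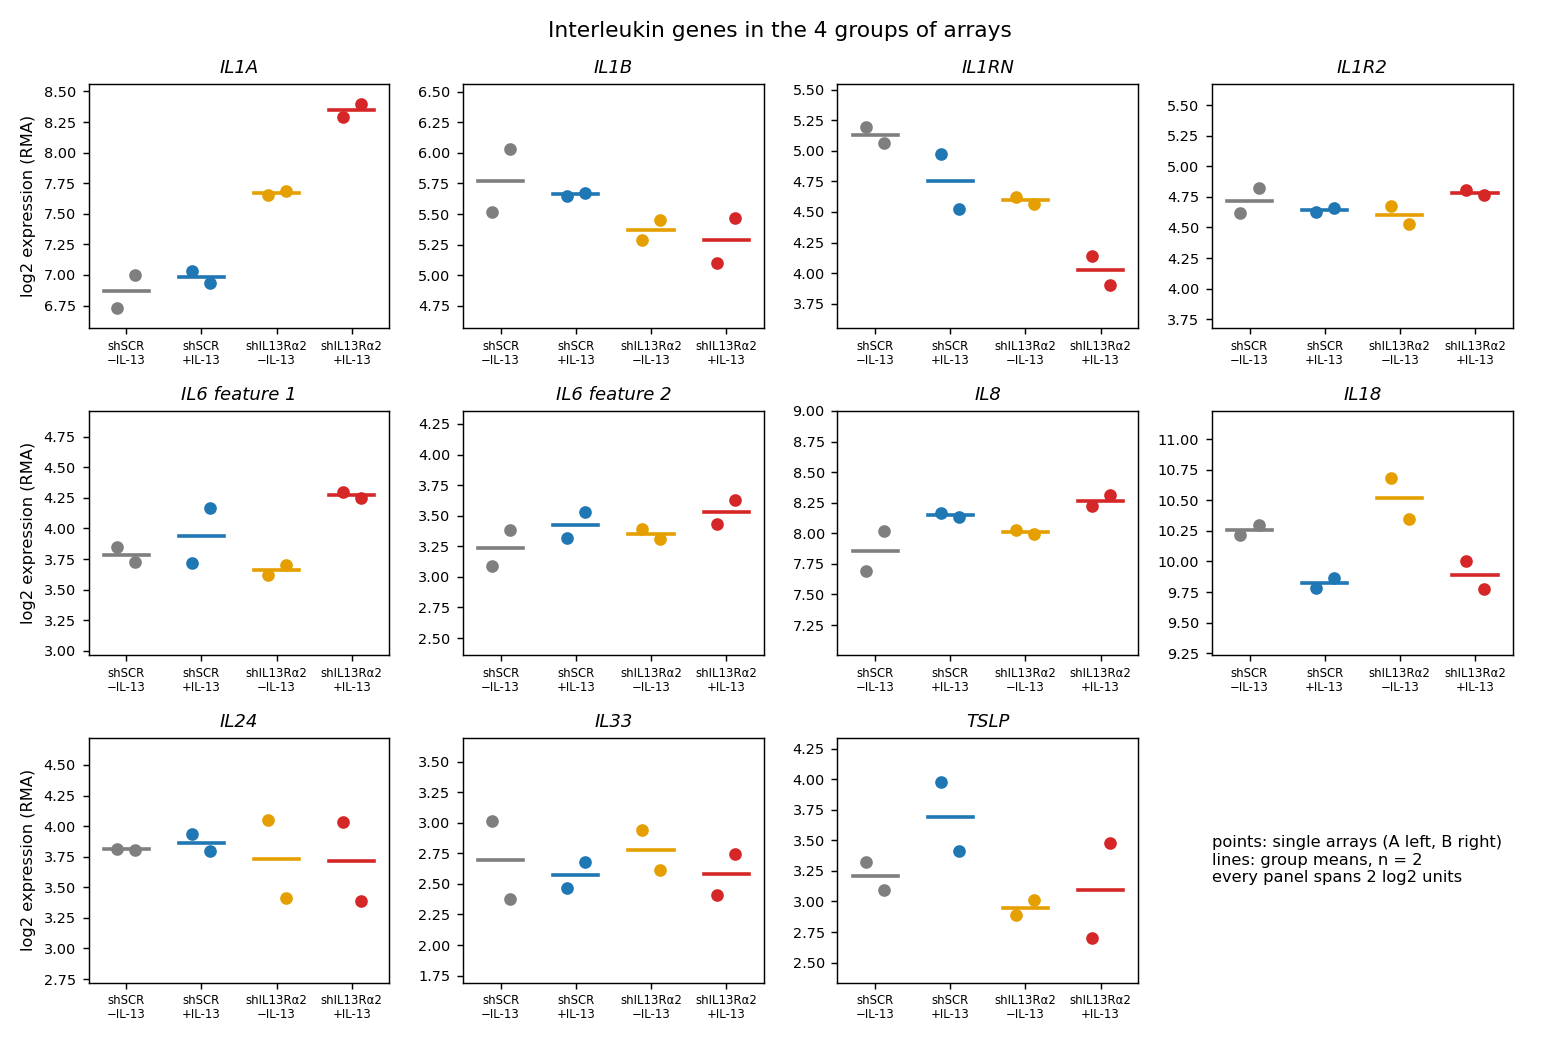
Log2 RMA expression (y axis) of the 11 features of the 10 genes on each of the 8 arrays, by group (x axis); points are arrays, lines are group means (n = 2), and every panel spans 2 log2 units. IL1A lies higher in all 4 knockdown arrays than in the 4 shSCR arrays, with the highest values in knockdown cells with IL-13 (8.29 and 8.40), while IL1RN is lowest there (4.14 and 3.91).

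IL1A, the gene of the agonist IL-1α, was the member that rose with the knockdown. Its log2 level was 6.73 and 7.0 in shSCR cells without IL-13, 7.03 and 6.93 in shSCR cells with IL-13, 7.65 and 7.69 in knockdown cells without IL-13, and 8.29 and 8.40 in knockdown cells with IL-13. The 4 knockdown arrays were all above the 4 shSCR arrays, and the knockdown arrays with IL-13 were above those without it, whereas the shSCR groups with and without IL-13 overlapped. Averaged over both treatments, IL1A was 1.09 higher in knockdown cells (SE 0.09, 2.12-fold, adjusted p = 0.0043, limma with Benjamini-Hochberg adjustment over all features, as in every test below). A feature was called at an adjusted p under 0.05 with a fold change above 2, which 0.0755% of all features met in this comparison. IL1A kept this call when any 1 of the 8 arrays was left out, with differences between 1.02 and 1.15 and adjusted p between 0.0155 and 0.0413.

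The knockdown effect on IL1A was also seen among the IL-13-treated cells alone, where the difference was 1.36 (SE 0.12, 95% interval 1.08 to 1.65, 2.57-fold, adjusted p = 0.0241) and 0.0515% of features were called. Knockdown cells with IL-13 exceeded shSCR cells without IL-13 by 1.48 (SE 0.12, 95% interval 1.19 to 1.77, 2.79-fold, adjusted p = 0.0067), with 0.154% of features called. Without IL-13 the knockdown difference was 0.81 (SE 0.12, unadjusted p = 0.0002, adjusted p = 0.114), which missed the call, and 0.0652% of features were called. The call among IL-13-treated cells held without either shSCR − IL-13 array and was lost when any other array was left out, with adjusted p of 0.0802 to 0.214. The call for knockdown with IL-13 against untreated shSCR cells was lost without shSCR − IL-13 array A (adjusted p = 0.0651), without knockdown + IL-13 array A (0.0591) and without knockdown + IL-13 array B (0.0915).

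The response of IL1A to IL-13 itself was not called. It was 0.12 in shSCR cells (SE 0.12, 95% interval −0.17 to 0.40) and 0.67 in knockdown cells (SE 0.12, 95% interval 0.39 to 0.96, unadjusted p = 0.0006, adjusted p = 0.238). The difference between these responses, the interaction, was 0.56 (SE 0.17, 95% interval 0.15 to 0.96, unadjusted p = 0.0131, adjusted p = 0.989), so that a larger response in knockdown cells was not established over all features. Averaged over both lines the IL-13 difference of IL1A was 0.39 (unadjusted p = 0.0020, adjusted p = 0.224). Under a variance prior that was robust and followed intensity (the trended robust prior), the adjusted p of IL1A was 0.025 for IL-13 in knockdown cells, 0.0378 for averaged IL-13 and 0.00634 for the knockdown without IL-13, each with a fold change below 2, and 0.996 for the interaction.

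The mean log2 level of the general epithelial markers also separated the knockdown arrays from the others. It was taken over the 6 features of EPCAM, CDH1, KRT8 and KRT18. It was 10.02 to 10.19 in the 4 shSCR arrays and 9.73 to 9.90 in the 4 knockdown arrays. Not every gene separated the lines. CDH1 was 9.52 to 9.72 in shSCR arrays and 9.21 to 9.55 in knockdown arrays. KRT8 overlapped too (9.96 to 10.41 and 9.81 to 10.13), as did 1 of the 2 EPCAM features. One of the 2 features named KRT18, a keratin gene with many near-identical pseudogene copies, was 0.60 lower in knockdown cells (adjusted p = 0.0454, under the fold threshold), and the other was 0.30 lower (adjusted p = 0.327). The mean of the 6 basal markers overlapped between the lines, at 7.42 to 7.69 in shSCR arrays and 7.45 to 7.65 in knockdown arrays. It differed by treatment instead, at 7.573 to 7.692 in the 4 arrays without IL-13 and 7.423 to 7.569 in the 4 with it. Luminal markers (3 of 4 genes above the control median) overlapped between the lines, at 5.26 to 5.39 in shSCR arrays and 5.23 to 5.46 in knockdown arrays. GATA3 among them was higher with the averaged knockdown at an unadjusted p under 0.05 (limma). Its group means were 7.80 and 7.90 in shSCR cells without and with IL-13, and 8.02 and 8.28 in knockdown cells. Leukocyte markers (5 of 7 genes above the control median) ranged from 4.53 to 4.75, and CD68 among them was lower in knockdown cells at an unadjusted p under 0.05 (−0.47, adjusted p = 0.262). Fibroblast markers (3 of 5 above that median) also separated the lines, at 4.51 to 4.58 in shSCR arrays and 4.42 to 4.46 in knockdown arrays. Endothelial markers (2 of 4) were 5.36 on both knockdown arrays without IL-13 and 4.96 to 5.24 on the other 6, and PECAM1 was 0.52 higher with the averaged knockdown (adjusted p = 0.0615). The part of these markers in the IL1A difference was not tested.

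IL1RN, the gene of the antagonist, had the opposite order of groups. Its level was 5.19 and 5.06 in shSCR cells without IL-13, 4.98 and 4.52 in shSCR cells with IL-13, 4.63 and 4.56 in knockdown cells without IL-13, and 4.14 and 3.91 in knockdown cells with IL-13. Both arrays of knockdown cells with IL-13 were below the other 6, and both untreated shSCR arrays were above the other 6, with overlap between the 2 middle groups. Knockdown cells with IL-13 were 1.10 lower than untreated shSCR cells (SE 0.16, 95% interval −1.48 to −0.72, adjusted p = 0.0536), which was not called. The values of the combined group lay below the control median of 4.19, so no fold change is given for IL1RN. Without the dimmest 30% of features the adjusted p was 0.0287, under the trended robust prior it was 0.0105, and without shSCR + IL-13 array A or B it was 0.0459. It was 0.317 at the highest when another array was left out. Averaged over treatments, IL1RN was 0.63 lower in knockdown cells (SE 0.12, unadjusted p = 0.0007, adjusted p = 0.091, and 0.028 under the trended robust prior), and averaged over lines it was 0.47 lower with IL-13 (SE 0.12, unadjusted p = 0.0038, adjusted p = 0.284).

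The separate comparisons of IL1RN ran the same way without passing the test. The knockdown difference was −0.53 without IL-13 (unadjusted p = 0.0123) and −0.73 with it (unadjusted p = 0.0024). The IL-13 difference was −0.38 in shSCR cells (95% interval −0.76 to 0.00) and −0.57 in knockdown cells (unadjusted p = 0.0088). These adjusted p lay between 0.346 and 0.745. The IL1RN interaction was −0.19 (95% interval −0.73 to 0.35), an interval that spans 0.

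**Figure D2:**
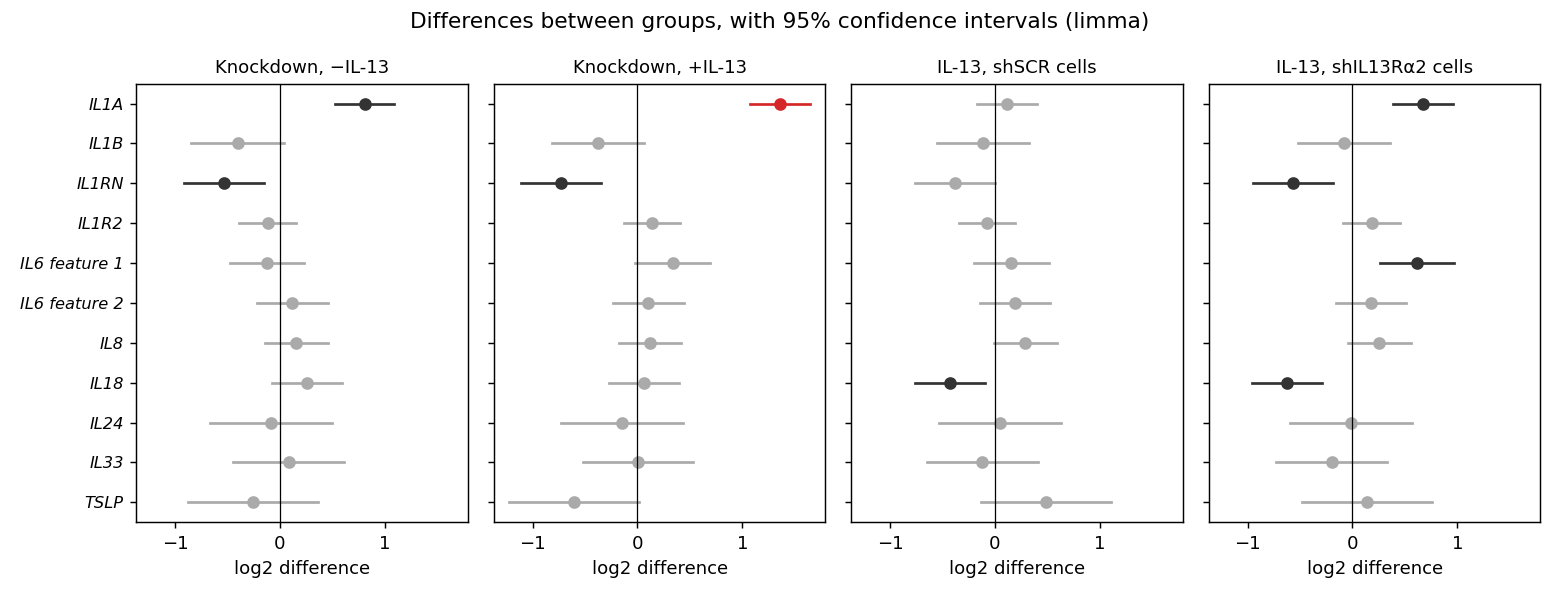
Log2 differences (x axis) of the 11 features (y axis) for the knockdown without and with IL-13 and for IL-13 in shSCR and in knockdown cells; bars are 95% intervals from limma, red marks a call, black an unadjusted p under 0.05 and grey the rest. IL1A with IL-13 (1.36) is the one call, and IL1RN lies left of 0 in all 4 panels.

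IL1B, the gene of the second IL-1 agonist, did not follow IL1A. Its level was 5.52 and 6.03 in shSCR cells without IL-13, 5.64 and 5.68 in shSCR cells with IL-13, 5.29 and 5.45 in knockdown cells without IL-13, and 5.10 and 5.47 in knockdown cells with IL-13. The 4 knockdown arrays lay below the 4 shSCR arrays, and the untreated shSCR arrays were farther apart than any pair of group means. The averaged knockdown difference was −0.39 (SE 0.13, unadjusted p = 0.0205, adjusted p = 0.357), and that of knockdown cells with IL-13 against untreated shSCR cells was −0.49 (SE 0.19, unadjusted p = 0.0341, adjusted p = 0.473). The latter was −0.74 without untreated shSCR array A, −0.23 without untreated shSCR array B and −0.30 without knockdown + IL-13 array A. IL1R2, the decoy receptor gene, ranged from 4.53 to 4.82 over the 8 arrays and had no unadjusted p under 0.05 in any of the 8 comparisons. Of the genes that share IL1R1, the agonist pair thus showed differences of opposite sign with the knockdown, and of these the one in IL1A passed the test.

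IL18, the member with the signal farthest above the controls, had lower values wherever IL-13 had been added. Its level was 10.21 and 10.30 in shSCR cells without IL-13, 9.79 and 9.87 in shSCR cells with IL-13, 10.68 and 10.35 in knockdown cells without IL-13, and 10.00 and 9.78 in knockdown cells with IL-13. The 4 arrays with IL-13 were all below the 4 without it, in both lines, and knockdown and shSCR cells with IL-13 overlapped. The averaged IL-13 difference was −0.53 (SE 0.10, 95% interval −0.76 to −0.29, unadjusted p = 0.0009, adjusted p = 0.157), composed of −0.43 in shSCR cells (SE 0.14, unadjusted p = 0.0181, adjusted p = 0.664) and −0.62 in knockdown cells (SE 0.14, unadjusted p = 0.0026, adjusted p = 0.415). None of these passed the adjusted threshold in this fit. Under the trended robust prior the adjusted p was 0.00768 for the average, 0.0416 in knockdown cells and 0.231 in shSCR cells, with fold changes below 2. The combined group differed from untreated shSCR cells by −0.37 (SE 0.14, unadjusted p = 0.0350, adjusted p = 0.477). IL-13 also went with lower values of the basal keratins KRT5 (averaged difference −0.29, adjusted p = 0.456) and KRT6A (−0.29, adjusted p = 0.358), whose part in the IL18 difference was not tested.

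IL8, which attracts neutrophils through CXCR1 and CXCR2, showed a small difference in the other direction. Its level was 7.69 and 8.02 in shSCR cells without IL-13, 8.16 and 8.13 in shSCR cells with IL-13, 8.03 and 8.0 in knockdown cells without IL-13, and 8.22 and 8.31 in knockdown cells with IL-13. The 4 arrays with IL-13 were above the 4 without it, and untreated shSCR array A was the lowest. The averaged IL-13 difference was 0.27 (SE 0.09, unadjusted p = 0.0181, adjusted p = 0.454), and the combined group exceeded untreated shSCR cells by 0.41 (SE 0.13, unadjusted p = 0.0135, adjusted p = 0.377). Without untreated shSCR array A that difference was 0.25 (adjusted p = 0.78).

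The 2 features of IL6, both in the range of the negative controls, disagreed in size. Feature 1 was 3.85 and 3.72 in shSCR cells without IL-13, 3.72 and 4.17 in shSCR cells with IL-13, 3.62 and 3.70 in knockdown cells without IL-13, and 4.30 and 4.25 in knockdown cells with IL-13. Knockdown cells with IL-13 were above the other 6 arrays, and the shSCR groups overlapped. The IL-13 difference of feature 1 was 0.62 in knockdown cells (SE 0.15, unadjusted p = 0.0042, adjusted p = 0.443) and 0.39 averaged over lines (SE 0.11, unadjusted p = 0.0078, adjusted p = 0.360), and the combined group exceeded untreated shSCR cells by 0.49 (SE 0.15, unadjusted p = 0.0131, adjusted p = 0.376). Feature 2 ranged from 3.08 to 3.63 and had no unadjusted p under 0.05.

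The alarmins IL33 and TSLP and the IL-20 subfamily gene IL24 gave no difference with an unadjusted p under 0.05 in any comparison. IL33 lay between 2.38 and 3.01 and IL24 between 3.39 and 4.05, with overlap between groups throughout. TSLP lay between 2.70 and 3.97, had its highest group mean in shSCR cells with IL-13 (3.97 and 3.42) and was spread widely over the knockdown arrays with IL-13 (2.70 and 3.48). Its averaged knockdown difference was −0.43 (95% interval −0.87 to 0.01). At this signal and number of arrays no change in IL33, TSLP or IL24 was detectable.

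**Figure D3:**
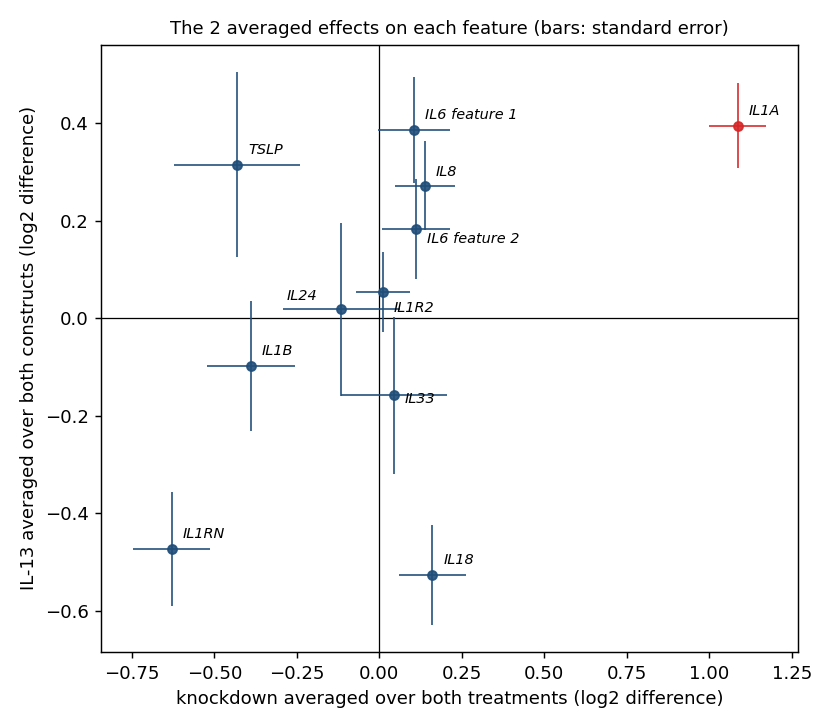
Log2 difference of each of the 11 features with the knockdown (x axis, averaged over both treatments) and with IL-13 (y axis, averaged over shSCR and knockdown cells); bars are standard errors and red marks the called feature. IL1A stands at 1.09 and 0.39, IL1RN at −0.63 and −0.47, and IL18 at 0.16 and −0.53.

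Counted over the 10 genes, 6 (IL1A, IL1B, IL1RN, IL6, IL8 and IL18) had an unadjusted p under 0.05 between knockdown cells with IL-13 and untreated shSCR cells, 3 higher and 3 lower, where 9.56% of all features did. With IL-13 averaged over both lines there were 5 (IL1A, IL6 and IL8 higher, IL1RN and IL18 lower), against 8.73% of all features, and none of the 10 was called, against 0.0927%. With the knockdown averaged over both treatments there were 3 (IL1A higher, IL1B and IL1RN lower), against 11.3%. In the simple comparisons the counts were 1 for IL-13 in shSCR cells (IL18, background 6.79%), 4 for IL-13 in knockdown cells (IL1A, IL1RN, IL6 and IL18, background 6.93%), 2 for the knockdown without IL-13 (IL1A and IL1RN, background 9.51%) and 2 for the knockdown with IL-13 (the same pair, background 7.07%). No member was called for IL-13 in shSCR or in knockdown cells, where 0.0583% and 0.0618% of features were. The interaction had an unadjusted p under 0.05 for IL1A, against 4.47% of features, and 0.00% of features passed the adjusted threshold. The median absolute difference of the 11 features was 0.37 in the combined comparison, against 0.12 over all tested features, and 0.14 against 0.09 for the averaged knockdown. Members were counted by gene, through any of their features, and the background by feature. The genes were chosen with earlier results of these data known, so these counts are a description and no test of the family.

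The other ligands of the IL-1 family showed no call. Of 6 genes (IL1F5 to IL1F10 on the array, current names IL36RN, IL36A, IL37, IL36B, IL36G and IL1F10), 1, IL1F9, had an unadjusted p under 0.05 with the averaged knockdown (−0.38, adjusted p = 0.335), and 1, IL1F6, did with averaged IL-13 (−0.37, adjusted p = 0.466). Over all features the shares at that threshold were 11.3% and 8.73%. The genes of the cluster between IL1A and IL1RN therefore gave no call. Of 8 receptors, coreceptors and binding proteins, IL1RAP, the shared signaling partner, was 0.27 lower with the averaged knockdown (adjusted p = 0.235), and IL1RL1, the IL-33 receptor, was 0.59 higher with averaged IL-13 (adjusted p = 0.440). Neither passed the test. IL1R1 itself lay between 3.32 and 4.19, around and below the median of the negative controls. The means of IL1RL1 (3.44) and IL1F9 (3.93) over the arrays were also below that median.

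Genes that relay or process IL-1 signals gave no call. Of 14 genes of Toll and IL-1 receptor signaling, 3 had an unadjusted p under 0.05 with the averaged knockdown, against 11.3% of all features. These were TAB2 (0.29, adjusted p = 0.294), CHUK (0.23, adjusted p = 0.422) and TOLLIP (0.21, adjusted p = 0.400), all 3 higher. With the averaged knockdown 0 of the 14 were called by limma, against 0.0755% of all features. Of 12 inflammasome and processing genes, 0 were called and 0 had an unadjusted p under 0.05 in that comparison. CAPN1, a calpain of the kind that trims the IL-1α precursor, differed by −0.19 with averaged IL-13 (adjusted p = 0.567).

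The CXC chemokines that share receptors with IL-8 held the one further call. CXCL1 was 8.13 and 8.10 in shSCR cells without IL-13, 8.73 and 8.49 in shSCR cells with IL-13, 8.50 and 8.79 in knockdown cells without IL-13, and 9.16 and 9.10 in knockdown cells with IL-13. It was highest in the combined group and lowest in untreated shSCR cells, with the 2 middle groups overlapping. CXCL1 rose by 1.02 from untreated shSCR cells to knockdown cells with IL-13 (SE 0.13, 2.02-fold, adjusted p = 0.0349), but the call was lost when any 1 of the 8 arrays was left out, with adjusted p of 0.0605 to 0.22. CXCL2 differed by 0.62 in the same comparison (adjusted p = 0.164) and by 0.47 with the averaged knockdown (adjusted p = 0.115). The other 6 of these 8 genes had no unadjusted p under 0.05 in these 2 comparisons, where 9.56% and 11.3% of all features did.

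Receptors of the other cytokines gave no call. LIFR, which pairs with the IL-6 family coreceptor, was 6.20 to 7.07 in the 4 shSCR arrays and 5.42 to 5.96 in the 4 knockdown arrays, an averaged difference of −0.88 (SE 0.13, 1.84-fold lower, adjusted p = 0.0362, under the fold threshold). Among IL-13-treated cells it was −1.06 (2.08-fold lower, adjusted p = 0.163), past the fold threshold and not the adjusted one. In shSCR cells LIFR was higher with IL-13 at an unadjusted p under 0.05 (group means 6.35 without and 6.98 with it). The other 11 genes of the IL-6 family list had no unadjusted p under 0.05 with the averaged knockdown. Among IL-13-treated cells CTF1 also had one, with higher values in knockdown cells. IL7R, a chain of the TSLP receptor, was 7.23 to 7.94 without IL-13 and 8.06 to 8.65 with it, an averaged difference of 0.79 (SE 0.09, 1.73-fold, adjusted p = 0.0176, under the fold threshold). IL7R was also lower with the knockdown at an unadjusted p under 0.05 (group means 7.84 to 7.30 without IL-13, 8.61 to 8.11 with it). IL7 was higher at that threshold with both averaged effects (4.20 in untreated shSCR cells, 4.96 in knockdown cells with IL-13). CRLF2, the TSLP-specific chain, stood at percentile 10.6 of the features. Leaving out 1 array at a time gave adjusted p of 0.0545 to 0.151 for LIFR and of 0.0481 to 0.103 for IL7R. Of 7 genes in the IL-20 subfamily list, with the receptors of IL-24, 0 were called and 1, IL22, had an unadjusted p under 0.05 with the averaged knockdown (−0.18, adjusted p = 0.413), against 11.3% of all features.

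Targets of NF-κB, the factor downstream of the IL-1 receptor, were mixed in direction. Of 22 genes on 28 features, none was called by limma in any comparison. With the averaged knockdown NFKB1 was higher at an unadjusted p under 0.05 (0.21, adjusted p = 0.360), a threshold that 11.3% of all features met. CCL20 (−0.53, adjusted p = 0.0709) and IER3 (−0.18, adjusted p = 0.424) were lower at that threshold. The IER3 difference was that of 2 of its features, which held identical values on every array. The median difference of the list was −0.07, against −0.01 over all features. CCL20, a chemokine gene that IL-1 induces in many epithelia, was 8.05 to 8.23 in shSCR arrays and 7.34 to 7.75 in knockdown arrays. This was opposite in direction to IL1A. The chemokine genes CXCL1 and CXCL2, counted in another list, were higher with the averaged knockdown at an unadjusted p under 0.05, as IL1A was. The mean level over the 28 features was 6.09 to 6.24 in shSCR arrays and 6.08 to 6.19 in knockdown arrays. The features of TNF and those of LTB also repeated the same values, so TNF, LTB and IER3 weigh more in this mean and in the median.

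**Figure D4:**
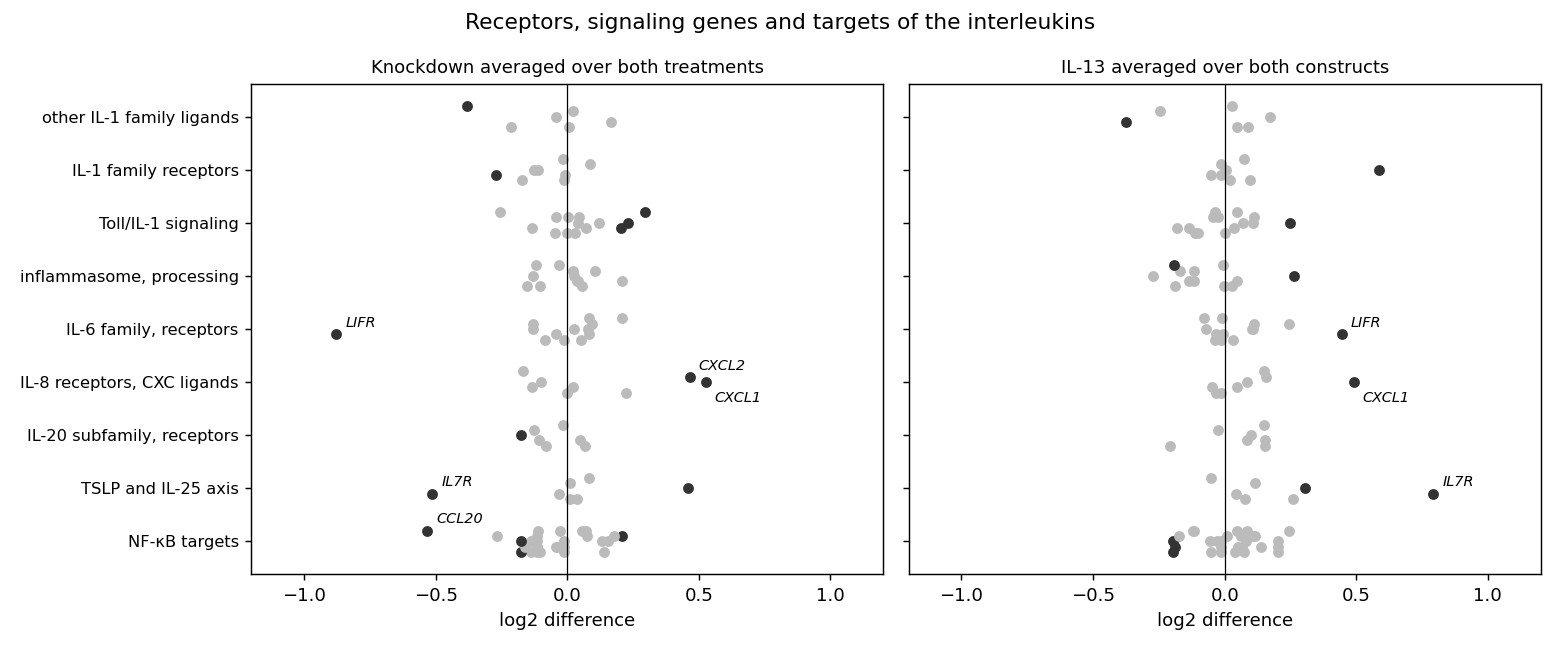
Log2 difference (x axis) of every feature of 9 gene lists around the interleukins (y axis) with the averaged knockdown (left) and with averaged IL-13 (right); black points have an unadjusted p under 0.05. LIFR (−0.88) and CCL20 (−0.53) lie to the left and CXCL1 (0.53) and CXCL2 (0.47) to the right with the knockdown, and IL7R lies at 0.79 with IL-13.

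Features whose pattern over the 8 arrays was most like a member were sought among 22038 features with a symbol, for the 3 members with the widest range of group means. For IL1A these were CDK8 (Pearson's r 0.991), GDI2 (0.988) and PGRMC1 (0.970), whose own group means spanned 0.26, 0.13 and 0.07 against 1.48 for IL1A. For IL1RN they were POLD4 (0.977), TRMT6 (0.976) and ABLIM3 (0.974), and for TSLP they were S100G (0.979), CDCA3 (0.961) and PIH1D2 (0.954). The 8 arrays share 4 groups and the features were picked as the most alike of all searched, so these names are a description.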

How the data were processed

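The deposited table of the authors holds RMA values on a log2 scale for each array, made in Affymetrix Expression Console (version 1 in the submitters' processing notes): background correction, quantile normalization of the arrays and a summary of each gene's probes. RMA pulls weak signals together, so differences of dim features are understated. Columns were placed in groups by construct and treatment. The genome build of the features is not given in the sources used here.

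From these values, 29141 features were fitted after 4156 control and spike-in features were removed, with limma 3.58.1 in R 4.3.3 on all 8 arrays (4 group means, 4 residual and 3.86 prior degrees of freedom, no covariate). Adjusted p are Benjamini-Hochberg values over all features of a comparison, and intervals are 95% intervals. The methods name the arrays of a group biological replicates, and their number limits the precision. Averaged comparisons are means of the separate ones and share arrays with them. The procedure was tested on simulated data.

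The genes and gene lists were chosen with earlier results of these data known. Values are given for every member, with a difference and p where the unadjusted p was under 0.05 or the interval is of use, and for list genes called or with the smallest p. Cytokine levels in the medium and protein were not analysed here. Alternatives were the methods' one-way analysis of variance with and without adjustment, limma on the arrays compared, other fold thresholds, removal of the dimmest 30%, other normalizations, a trended robust prior, 1 feature per gene and leaving out each array. For CXCL1, LIFR and IL7R they were chosen after seeing the data. Upstream windows come from RefSeq on GRCh38.p14, and 1 motif searched in them is not reported here.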

Additional observations from a re-analysis of the deposited data

Results flagged for a closer look

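IL6 feature 1 was lower in knockdown cells than in shSCR cells without IL-13 (3.62 and 3.70 against 3.85 and 3.72) and higher with IL-13 (4.30 and 4.25 against 3.72 and 4.17), so that all arrays moved one way without the cytokine and the other way with it. The interaction was 0.46 (SE 0.22, 95% interval −0.05 to 0.96, unadjusted p = 0.0695, adjusted p = 0.989, limma). IL6 feature 2 had a different order of groups, and both features lay below the median of the negative controls. Groups of 2 arrays are too small to search for single outlying arrays.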

How the results depend on the processing

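Alternatives were run for member differences with an unadjusted p under 0.05 and for 1 difference each of CXCL1, LIFR and IL7R, and none of these changed sign. Of their values under the alternatives, 340 stayed on their side of the call (adjusted p and fold together), 4 moved past it and 20 fell back. The trended robust prior brought the adjusted p under 0.05, at a fold change below 2, for the knockdown difference of IL1A without IL-13, for the IL-13 differences of IL1A and IL18 in knockdown cells and on average, and for the averaged knockdown difference of IL1RN, with the values given beside those results. The number of members called for the knockdown with IL-13 was 1, and it was 0 by the methods' test with adjustment and 0 by limma on the 4 arrays compared (IL1A adjusted p = 0.237). For knockdown with IL-13 against untreated shSCR cells the number was 1. It was 2 by the methods' test without adjustment, by limma without adjustment, without the dimmest 30% of features and with an intensity trend and robust prior. It was 0 by the methods' test with adjustment and by limma on the 4 arrays compared (IL1A adjusted p = 0.120, CXCL1 adjusted p = 0.127). The interaction had 1 member without adjustment, against 0 with it. When 1 array was left out, the numbers ranged from 0 to 1 for the knockdown with IL-13 and from 0 to 2 for the combined comparison, and stayed at 1 for the averaged knockdown. With the 95th percentile of the negative controls as reference in place of their median, 1 member was above background, against 6. The filter on dim features kept 20399 features and 6 of the 10 genes. No paired analysis was possible because replicate numbers from the labels are missing in the column names. Signals near the negative controls limit what can be said of IL6, IL24, IL33 and TSLP, and of IL1RN in knockdown cells with IL-13.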
